A study of Homo sapiens with 4 samples.

Results

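The genes described here are 10 named members of the response to endoplasmic reticulum (ER) stress and of the programme driven by ATF4: HSPA5, HERPUD1, DNAJB9, XBP1, ATF4, DDIT3, TRIB3, CHAC1, ASNS and DDIT4. They were taken by symbol from a table of 13165 genes, which lists all 10. The values are from TPC1, a long-established cell line from a human papillary thyroid carcinoma. TPC1-INAVA cells stably overexpressed INAVA from a retroviral vector, listed in the labels under its older symbol C1orf106, and TPC1-Vector cells carried the empty vector. Both were grown in DMEM with fetal bovine serum and selected with puromycin, and the labels name no inducer of ER stress and no amino acid withdrawal in either group. Each group had 2 libraries, which the authors had combined into 1 value per gene and group before deposition. Values are in FPKM, read fragments scaled to transcript length and to the fragments mapped per library, so levels can be compared between genes. With 1 value per group no spread between replicates could be computed and no test run, and no difference below has a replicate check. The p-values that the authors deposited for their own comparison were not used. Whether the overexpressing line is a clone or a pool is not given in the sources used here.

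Secretory and membrane proteins fold in the ER. When unfolded proteins accumulate there, the sensors IRE1 (ERN1), ATF6 and PERK (EIF2AK3) start the unfolded protein response. IRE1 splices the XBP1 mRNA, and spliced XBP1 and cleaved ATF6 raise transcription of chaperones and of the machinery that removes misfolded proteins. PERK phosphorylates eIF2-alpha, which slows translation in general while it favours translation of ATF4. Other kinases reach the same eIF2-alpha step on other signals, GCN2 (EIF2AK4) on a shortage of amino acids, so ATF4 targets respond to amino acid supply as well as to ER stress. The thyroid follicular cell is a secretory cell, and the folding of thyroglobulin in its ER is a known load.

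The promoters of these genes carry different short elements. The ER stress response element (ERSE), bound by ATF6 and NF-Y, has the letters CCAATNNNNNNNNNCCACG, and the related ERSE-II has ATTGG and CCACG with 1 free base between them. The element bound by XBP1 and ATF6 (UPRE) was searched as TGACGTGG, and the core of the amino acid response element bound by ATF4 was searched as TGATGNAA. RefSeq promoter windows of 300 bases on GRCh38.p14, with 250 bases before the transcription start and 50 after it, were searched for exact matches on both strands. All 10 genes had a window, and some had several. ERSE was found in 2 of the 10 genes (HSPA5 and XBP1) and in 0.0916% of the 27305 genes with a window. ERSE-II was found in 1 gene (HERPUD1) against 0.0696%, and the amino acid response core in 3 (HERPUD1, CHAC1 and ASNS) against 4.46%. UPRE was found in 0 of the 10 genes and in 0.927% of all genes. These are matches of letters and not measured binding. HSPA5 is a classical ERSE promoter and ASNS a standard readout of ATF4, so matches in them were to be anticipated and are no independent support. The shares cover all genes with a window, whether or not expressed here, and are not a test. The windows of DNAJB9, ATF4, DDIT3, TRIB3 and DDIT4 hold no exact match to the letters searched, which says nothing of elements outside the window.

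The windows of HSPA5, a classical ERSE promoter, and of ASNS and DDIT4, which differed most between the groups, are shown on the gene's strand, 5′ to 3′, with the fixed letters of each match in capitals. That of HSPA5 is at chr9:125241294-125241593, reverse strand, with the ERSE from 66 bases before the start.
HSPA5: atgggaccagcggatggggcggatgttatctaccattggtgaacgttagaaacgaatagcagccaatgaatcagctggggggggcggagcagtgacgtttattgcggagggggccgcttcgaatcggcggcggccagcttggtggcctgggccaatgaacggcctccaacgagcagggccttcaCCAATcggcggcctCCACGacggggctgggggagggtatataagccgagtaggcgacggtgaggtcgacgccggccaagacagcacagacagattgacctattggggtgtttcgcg
That of ASNS is at chr7:97872359-97872658, reverse strand, with the amino acid response core from 68 bases before the start.
ASNS: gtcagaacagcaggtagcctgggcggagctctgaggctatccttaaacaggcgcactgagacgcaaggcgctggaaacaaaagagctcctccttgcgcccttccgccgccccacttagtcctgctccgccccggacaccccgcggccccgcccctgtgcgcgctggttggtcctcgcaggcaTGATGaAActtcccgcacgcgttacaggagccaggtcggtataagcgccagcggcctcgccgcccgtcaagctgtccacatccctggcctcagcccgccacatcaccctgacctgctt
That of DDIT4 is at chr10:72273674-72273973, forward strand, without a match.
DDIT4: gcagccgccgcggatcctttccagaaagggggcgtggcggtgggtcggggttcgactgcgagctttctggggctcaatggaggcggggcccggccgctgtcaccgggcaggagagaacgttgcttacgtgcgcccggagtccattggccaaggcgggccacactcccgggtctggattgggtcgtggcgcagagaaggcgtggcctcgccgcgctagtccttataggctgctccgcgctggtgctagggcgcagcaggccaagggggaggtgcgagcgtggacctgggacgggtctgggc
The matches in XBP1, HERPUD1 and CHAC1 are shown with 4 bases on each side, to set them against those above, and the positions are those of the match alone. In HERPUD1 and CHAC1 the core reads as its reverse complement.
XBP1 ERSE, chr22:28800603-28800621, reverse strand: ctggCCAATcgcggagggCCACGaccg
HERPUD1 ERSE-II, chr16:56932025-56932035, forward strand: gccgATTGGgCCACGttgg
HERPUD1 core, chr16:56931966-56931973, forward strand: cgggTTgCATCAgccc
CHAC1 core, chr15:40953262-40953269, forward strand: gccgTTgCATCActcc

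The overexpressed gene followed the labels. INAVA was at 7.96 FPKM in TPC1-Vector against 123 FPKM in TPC1-INAVA. Of 10 thyroid markers, PAX8 (60.1 and 55.7 FPKM) and FOXE1 (5.26 and 5.89 FPKM) are listed, and thyroglobulin, thyroid peroxidase and the TSH receptor are not in the table. Of the epithelial markers, KRT19, EPCAM and CDH1 are not in the table and KRT7 was at 1.97 and 2.01 FPKM. KRT8 was lower in TPC1-INAVA, at 23.4 and 10.5 FPKM (-1.12 on the log2 scale), and its partner KRT18 was higher, at 140.3 and 212 FPKM (0.59). Both are listed at the same position, and whether this bears on the genes below was not tested. Of the defining markers of other cell types, PTPRC, CD3E, PECAM1, VWF, CDH5, COL1A2 and DCN are not in the table. The summed level of the 2 immune markers listed was 6.06 and 8.91 FPKM, that of the 3 fibroblast markers listed was 3.56 and 2.19 FPKM, and the endothelial marker listed, TEK, was at 0.460 and 0.359 FPKM. In bulk RNA, fewer cells with a transcript and less of it per cell cannot be told apart.

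Of the 10 genes, 9 were lower in TPC1-INAVA and 1, DNAJB9, was higher. DDIT4, an inhibitor of mTORC1, and ASNS, the asparagine synthetase, were at least 1.5-fold lower, and no gene was 1.5-fold higher. Fold changes are given as differences of log2(FPKM + 0.5), TPC1-INAVA against TPC1-Vector. A fold of 1.5 on this scale, 0.58 on the log2 scale, was used as the mark in place of a test. Among the 12305 genes that averaged 0.5 FPKM or more, which include all 10 members, 1.45% were 1.5-fold lower and 2.24% were 1.5-fold higher. The median log2 fold change of the 10 genes was -0.21, against 0.0033 over the 12305 genes, of which 49.2% were lower. The lower quartile of all genes was -0.12, and 8 of the 10 genes lay below it. The 10 genes share regulators and are not independent of each other.

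**Figure D1:**
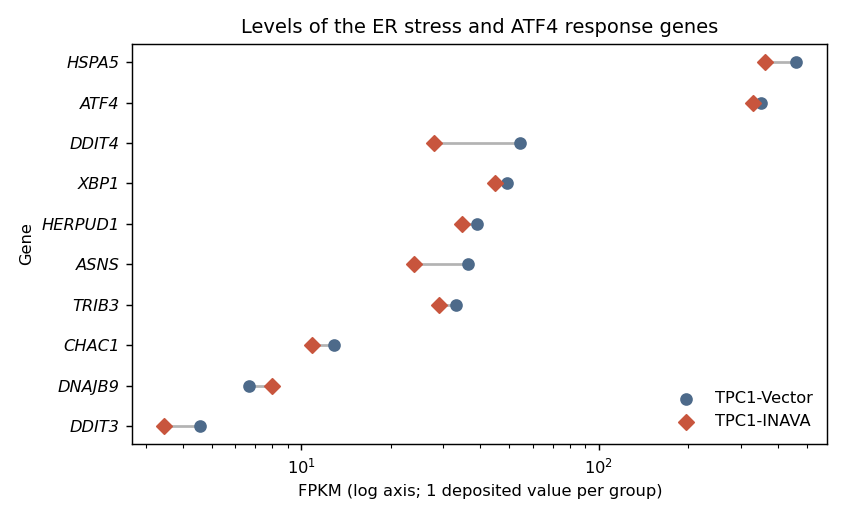
FPKM of the 10 genes on a log axis, with 1 deposited value for TPC1-Vector (circles) and 1 for TPC1-INAVA (diamonds), joined by a line for each gene. TPC1-INAVA lies left of TPC1-Vector for 9 genes, farthest for DDIT4 (54.3 and 28.0 FPKM) and ASNS (36.3 and 23.9 FPKM), and right of it for DNAJB9.

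The levels themselves spanned 101-fold in TPC1-Vector and 105-fold in TPC1-INAVA, from DDIT3 to HSPA5. In TPC1-Vector the order of levels was HSPA5, ATF4, DDIT4, XBP1, HERPUD1, ASNS, TRIB3, CHAC1, DNAJB9 and DDIT3. HSPA5 ranked 125 and ATF4 ranked 164 among the 12305 genes, while DDIT3 ranked 8787. In TPC1-INAVA the first 2 and the last 3 kept their places, and DDIT4 and ASNS came after XBP1, HERPUD1 and TRIB3. Without a spread between libraries, it cannot be said which neighbours in this order differ.

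HSPA5 encodes BiP, the HSP70 chaperone of the ER lumen, which holds the sensors inactive until unfolded proteins draw it away. It was at 460.1 FPKM in TPC1-Vector against 362 FPKM in TPC1-INAVA, 1.27-fold lower, with a log2 fold change of -0.35. That is short of 1.5-fold. Of the 782 genes averaging 100 FPKM or more, the 5th percentile of the log2 fold change was -0.26, and HSPA5 lay below it. The difference of 98.5 FPKM was the largest of the 10 genes in FPKM. HERPUD1, an ER membrane protein with a ubiquitin-like domain that serves ER-associated degradation, was at 38.9 and 34.6 FPKM, with a log2 fold change of -0.17. DNAJB9 encodes ERdj4, a J-domain co-chaperone of BiP and a classical target of spliced XBP1. It was at 6.68 FPKM in TPC1-Vector against 7.95 FPKM in TPC1-INAVA, with a log2 fold change of 0.23. That is short of the 95th percentile of the 4405 genes at 5 to 20 FPKM, which was 0.36. So among these 3 genes of the ER lumen and membrane, HSPA5 and HERPUD1 were lower and DNAJB9 higher. DNAJB9 has the same position in the table as THAP5, which lies on the opposite strand and was at 16.4 and 15.7 FPKM. The strandedness of the libraries is not given in the sources used here, so reads in stretches that both genes cover cannot be told apart.

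Of the transcription factors, XBP1 was at 49.0 FPKM in TPC1-Vector against 44.8 FPKM in TPC1-INAVA, with a log2 fold change of -0.13. The table holds 1 value for the gene and does not separate spliced from unspliced XBP1. ATF4 was at 352 and 330.3 FPKM, with a log2 fold change of -0.09, the smallest of the 10 genes. ATF4 is controlled to a large part in translation, which these data do not measure. DDIT3 encodes CHOP, the factor that ATF4 and ATF6 induce under lasting stress and that favours cell death. It was the weakest of the 10 genes, at 4.57 and 3.46 FPKM, with a log2 fold change of -0.36. Of the 3721 genes at 0.5 to 5 FPKM, 6.91% were past 1.5-fold in either direction and the 5th percentile was -0.46, so a difference of the size of DDIT3 is within the range common at this level. DDIT3 shares its position in the table with MARS1 (listed as MARS), with which it overlaps on the opposite strand. MARS1 was at 101 FPKM in TPC1-Vector, 22.2-fold above DDIT3, and at 96.3 FPKM in TPC1-INAVA, so the value of DDIT3 is uncertain.

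All 4 effectors downstream of ATF4 were lower, with a median log2 fold change of -0.41. DDIT4, also called REDD1, was at 54.3 FPKM in TPC1-Vector against 28.0 FPKM in TPC1-INAVA, 1.94-fold lower, with a log2 fold change of -0.94. Among the 12305 log2 fold changes it ranked 38 from the lowest. ASNS, which makes asparagine from aspartate and glutamine and is a standard readout of ATF4, was at 36.3 and 23.9 FPKM, 1.52-fold lower. Its log2 fold change of -0.59 ranked 171 from the lowest and was close to the mark of 1.5-fold. With 1 added to each FPKM value in place of 0.5, it was -0.58 and missed the mark. CHAC1, which degrades glutathione, was at 12.9 and 10.9 FPKM with a log2 fold change of -0.23. TRIB3, a pseudokinase that ATF4 and CHOP induce and that restrains ATF4 in turn, was at 33.2 and 29.03 FPKM with a log2 fold change of -0.19. Of the 3397 genes at 20 to 100 FPKM, a class that holds DDIT4, ASNS, TRIB3, XBP1 and HERPUD1, 1.88% were past 1.5-fold in either direction and the 5th percentile was -0.30. DDIT4 and ASNS lay beyond that value, and TRIB3, XBP1 and HERPUD1 did not. CHAC1 did not reach the 5th percentile of the 4405 genes at 5 to 20 FPKM, which was -0.34.

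**Figure D2:**
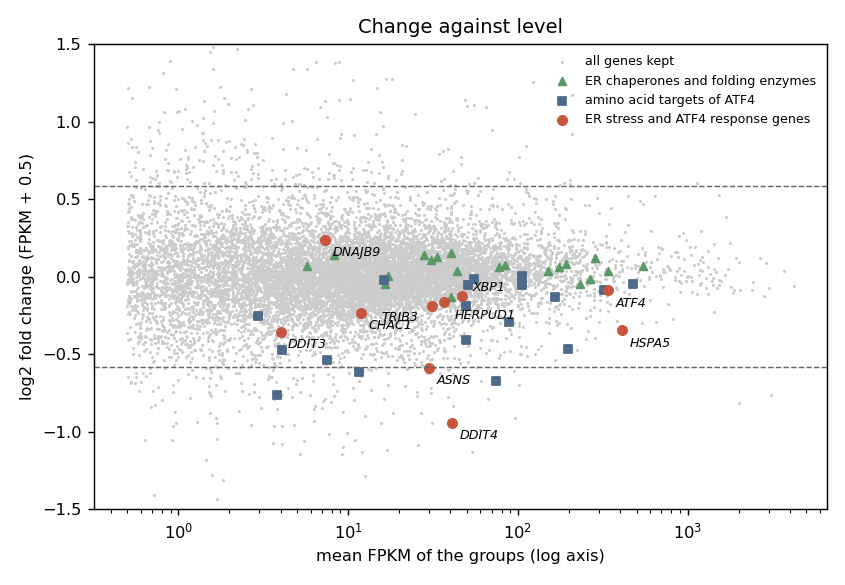
Log2 fold change of (FPKM + 0.5), TPC1-INAVA against TPC1-Vector, against the mean FPKM of the groups on a log axis for all genes kept (grey), with the 10 genes (circles), ER chaperones and folding enzymes (triangles) and amino acid targets of ATF4 (squares) on top. Dashed lines mark 1.5-fold, and the 32 genes beyond 1.5 on the log2 scale and 1 entry to the right of the axis are not drawn. DDIT4 and ASNS are the circles below the lower line, and the triangles lie close to 0.

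The chromosomal surroundings differed between DDIT4 and the rest. For each gene, the genes whose midpoint lay within 1 Mb of its own and whose mean was at least 1 FPKM were taken as neighbours. DDIT4 lies on chromosome 10 (72273919 to 72276039), in a stretch where most genes were lower in TPC1-INAVA. Of its 13 neighbours 12 were lower, with a median log2 fold change of -0.46. Beside it, DNAJB12 was at 24.4 and 16.9 FPKM (-0.52), MCU at 42.1 and 27.2 FPKM (-0.62) and ANAPC16 at 23.2 and 16.7 FPKM (-0.46). On the log2 scale the difference between DDIT4 and the median of its neighbours was -0.48, which is no longer past the mark, and 1 neighbour, C10orf54 (-1.15), was lower still. How much of the difference of DDIT4 goes with the stretch was not tested. It is overlapped by the antisense gene DDIT4-AS1 in GENCODE release 29.

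ASNS (chromosome 7, 97852117 to 97872542) had 6 neighbours with log2 fold changes from -0.06 to 0.20 and a median of -0.01. After subtraction of that median the log2 fold change of ASNS was -0.58, just short of the mark. HSPA5 (chromosome 9, 125234848 to 125241387) had 13 neighbours with a median of 0.006, and its log2 fold change after subtraction was -0.35. For the other 7 genes the medians of the neighbours lay between -0.06 and 0.01. After subtraction of these medians, 9 of the 10 genes were still lower and DNAJB9 higher, the median was -0.19, and 0 genes were past 1.5-fold. The subtraction was not run over all genes, so these counts have no like share of all genes beside them.

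**Figure D3:**
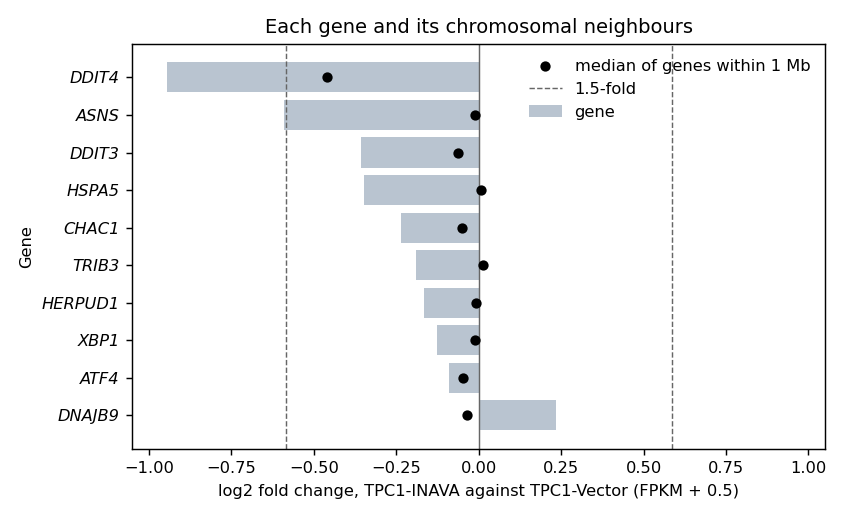
Log2 fold change of (FPKM + 0.5), TPC1-INAVA against TPC1-Vector, of the 10 genes (bars, from 0) and the median of the genes within 1 Mb of each (black points), with dashed lines at 1.5-fold. The neighbours' medians lie near 0 for 9 genes and at -0.46 for DDIT4.

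**Figure D4:**
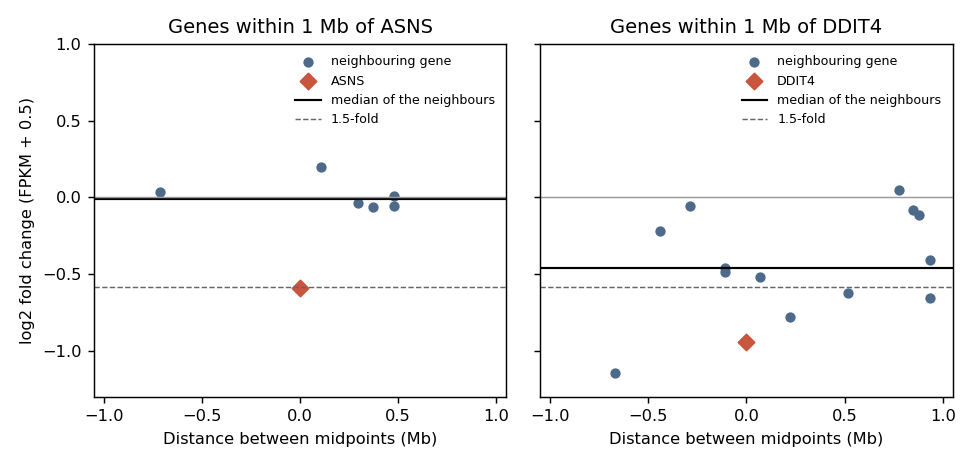
Log2 fold change of (FPKM + 0.5) of the genes within 1 Mb of ASNS (left) and DDIT4 (right) against the distance between gene midpoints in Mb, with the gene itself (diamond), the median of the neighbours (black line) and 1.5-fold lower (dashed line). ASNS stands alone below its 6 neighbours, while 12 of the 13 neighbours of DDIT4 are below 0 with it.

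Further genes of both arms were taken from 6 lists, each described by its counts and its median beside those of all genes given above (49.2% lower, 1.45% 1.5-fold lower, median 0.0033). The genes of a list share regulators and are not independent. The list nearest to ASNS and CHAC1, amino acid synthesis and transport targets of ATF4, was lower in 17 of its 18 genes, with a median of -0.22. Of these genes 3 were 1.5-fold lower and 0 were 1.5-fold higher. SLC6A9, a glycine transporter, was at 4.93 FPKM in TPC1-Vector against 2.69 FPKM in TPC1-INAVA (-0.77). It is among the genes at 0.5 to 5 FPKM, of which 6.91% were past 1.5-fold in either direction. Their 5th percentile was -0.46. PHGDH, the first enzyme of serine synthesis from glycolysis, was at 91.2 and 56.9 FPKM (-0.68). SLC7A11, the cystine transporter that feeds glutathione synthesis, was at 14.2 and 9.05 FPKM (-0.62). The medians of their neighbours were 0.04, 0.09 and -0.08.

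The serine pathway could be followed step by step. PSAT1, the second enzyme, was at 229 and 165 FPKM (-0.47), and PSPH, which finishes serine synthesis, was at 52.3 and 45.9 FPKM (-0.19). CTH, which makes cysteine, was at 4.81 and 3.33 FPKM (-0.47), and ALDH1L2, a mitochondrial folate enzyme, at 8.999 and 6.05 FPKM (-0.54). ALDH18A1, which starts proline synthesis, was at 56.6 and 42.5 FPKM (-0.41). It lies on chromosome 10 as DDIT4 does, and the median of its neighbours was -0.23. Not every gene of the list differed by much. SHMT2 was at 108 and 104 FPKM (-0.05), and MTHFD2 at 174 and 159 FPKM (-0.13). The amino acid transporters SLC7A5 (484 and 467 FPKM), SLC3A2 (329 and 309 FPKM) and SLC1A5 (106.02 and 106.4 FPKM) and the proline enzyme PYCR1 (55.2 and 54.6 FPKM) had log2 fold changes from -0.09 to 0.005. After subtraction of the medians of the neighbours, 16 of the 18 genes were lower and the median was -0.18. No share of all genes after subtraction was computed to set beside this count.

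The ER chaperones and folding enzymes did not follow HSPA5. Of 20 genes 16 were higher and 4 lower, with a median of 0.07, and 0 were past 1.5-fold in either direction. Their log2 fold changes ran from -0.13 to 0.15. DNAJC10, a disulfide reductase of the ER, was at 38.3 and 42.6 FPKM (0.15). FKBP14, a prolyl isomerase, was at 7.81 and 8.64 FPKM (0.14), and CRELD2 was at 26.8 and 29.5 FPKM (0.14). HSP90B1, the HSP90 of the ER, was at 269 and 266 FPKM (-0.02), and the lectin chaperone CALR at 535 and 560.3 FPKM (0.07). MANF, a secreted ER stress protein, was lowest of the list, at 42.4 and 38.7 FPKM (-0.13). HSPA5, at -0.35, thus lay outside the range of the 20 genes. With quantile normalization 8 of the 20 were lower and the median was 0.02. The ERSE letters stood in 6 of the 18 genes of this list that have a window, among them HSP90B1, CALR and CANX. Over all genes with a window the share was 0.0916%. Whether these letters bear on the values was not tested.

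Components of ER-associated degradation and translocation had a median of 0.03, with 11 of 19 genes higher and 0 past 1.5-fold. With quantile normalization 10 of the 19 were lower and the median was -0.0074, so this list has no direction that holds under both scalings. SEC62, a subunit of the translocation machinery, was lowest at 35.8 and 27.2 FPKM (-0.39). It lies on chromosome 3, where the median of its 9 neighbours was -0.40. OS9, a lectin that hands misfolded glycoproteins to degradation, was at 31.8 and 36.8 FPKM (0.21), and SEC61B, of the translocation channel, at 193 and 221 FPKM (0.20).

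The regulators of the response were close to the median of all genes. Of 16 sensors, kinases, phosphatase subunits and related factors kept, 10 were lower and 6 higher, with a median of -0.02 and 0 past 1.5-fold. The sensors ERN1 (0.989 and 1.15 FPKM), EIF2AK3 (4.61 and 5.14 FPKM) and ATF6 (18.2 and 17.6 FPKM) had log2 fold changes of 0.15, 0.14 and -0.05. PPP1R15A, or GADD34, the stress-induced phosphatase subunit that reverses eIF2-alpha phosphorylation, was at 7.92 and 10.9 FPKM (0.43). Its constitutive counterpart PPP1R15B was at 42.6 and 36.7 FPKM (-0.21). CREB3L2, a membrane-bound factor of the ATF6 type, was at 16.8 and 14.2 FPKM (-0.24).

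Stress factors downstream of ATF4 went both ways. Of 17 genes 10 were higher and 7 lower, with a median of 0.02. BBC3, or PUMA, a BH3-only protein that promotes apoptosis and is also a p53 target, was at 3.93 and 7.30 FPKM (0.82), the 1 gene of the list past 1.5-fold. SESN2, an inhibitor of mTORC1 as DDIT4 is, was at 10.1 FPKM in TPC1-Vector against 15.1 FPKM in TPC1-INAVA (0.56), against the direction of DDIT4. NUPR1, a stress-induced chromatin protein, was at 29.6 and 19.8 FPKM (-0.57). ATF3 (0.735 and 1.197 FPKM, 0.46) and CEBPB (16.2 and 23.2 FPKM, 0.50), which partner with ATF4 or act after it, were higher. Of the genes at 0.5 to 5 FPKM, the 95th percentile was 0.53, so the difference of ATF3 is within the range common at its level. CEBPB lies on chromosome 20, where the median of its 19 neighbours was 0.32.

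The cytosolic aminoacyl-tRNA synthetases, several of which ATF4 induces, had a median of -0.04, with 11 of 18 genes lower and 0 past 1.5-fold. AARS1 was lowest, at 101 and 79.3 FPKM (-0.35), followed by WARS1, at 48.4 and 42.5 FPKM (-0.19), and VARS1 was highest, at 62.2 and 71.5 FPKM (0.20). The amino acid response core stood in 7 of the 14 genes of this list that have a window. It stood in 4 of the 12 such genes of the amino acid list, and in 4.46% of all genes with a window. In the amino acid list the genes with a match were SLC7A1, SLC3A2, SLC1A4 and SLC1A5. The windows of PHGDH and SLC6A9 hold none, and SLC7A11 has no window in the table used. Whether a match bears on the values was not tested.

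**Figure D5:**
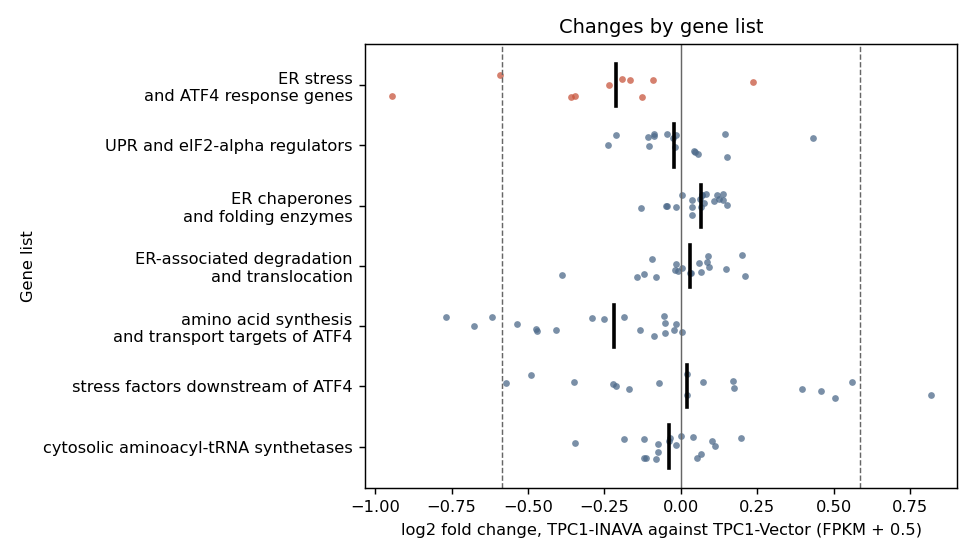
Log2 fold change of (FPKM + 0.5), TPC1-INAVA against TPC1-Vector, of each gene kept (points, spread vertically only for legibility) in the 10 genes (top row) and 6 further lists, with the median of each list (black bar) and dashed lines at 1.5-fold. The medians of the 10 genes (-0.21) and of the amino acid targets of ATF4 (-0.22) lie left of 0, and those of the other lists lie between -0.04 and 0.07.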

How the data were processed

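The 10 genes and the lists were chosen with earlier results of these data known. RNA of 4 TPC1 libraries was sequenced (2 TPC1-Vector, 2 TPC1-INAVA). The deposited FPKM values had been computed by the authors per gene and group, with 1 value per group. The submitters' processing notes name CASAVA, Cufflinks 2.1.1, Cuffdiff and hg38; the aligner is not given in the sources used here. Columns with the authors' own log2 ratio, p-value and q-value were not used. Depth per library is unknown, so no interval for counting error is given, and no test could be run.

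From these values, log2((FPKM + 0.5) ratio) was computed for genes averaging 0.5 FPKM or more, using Python 3.11.15, pandas 2.3.3 and numpy 2.4.6, and checked on simulated data. Past the fold means at least 1.5-fold. Positions are those of the deposited table, made 1-based. Promoters are RefSeq windows on GRCh38.p14, and overlapping genes are from GENCODE release 29. The genes named were the 10 members, INAVA and, in each of the 6 lists, the 3 with the largest absolute log2 fold change. All other genes with values, apart from the fixed cell type markers, were chosen after their values were seen. Alternatives were other pseudocounts, filters, folds and scalings, subtraction of the median of the neighbours, and motif matches with 1 mismatch. Some items are not reported here.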

Additional observations from a re-analysis of the deposited data

How the results depend on the processing

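All 10 genes kept their direction under the 7 alternatives of pseudocount, filter and scaling. A change of pseudocount or filter cannot turn a direction, so only median-of-ratios scaling and quantile normalization could have done so. The number of the 10 genes past the fold and lower, 2 as reported, was 1 with a pseudocount of 1 (ASNS at -0.58), 0 at a fold of 2, 4 at a lower mark of 0.32 on the log2 scale and 0 after subtraction of the median of the genes within 1 Mb, a count added after the data were seen. Among the 12305 genes kept, 179 (1.45%) were past the fold and lower, against 124 with a pseudocount of 1. With a pseudocount of 0.1 there were 289 and without one 329, and the 10 genes stayed at 2 in both. Of the 12305 genes, 75 were higher and 30 lower at a fold of 2, and 946 and 829 at the lower mark. No count over all genes was made after subtraction of the neighbours' median. Of the 20 ER chaperones, 4 were lower as reported, 5 with median-of-ratios scaling and 8 with quantile normalization. The latter also turned the median of the 19 degradation and translocation genes from 0.03 to -0.0074, and that of all genes from 0.0033 to -0.0063. The cause was not tested. With 1 mismatch allowed, ERSE was found in 4 of the 10 genes (1.89% of all genes), ERSE-II in 2 (1.46%), UPRE in 4 (20.2%) and the amino acid response core in 3 (49.3%). With no replicate spread, a log2 value was counted as moved past 0.1. No paired analysis was possible because the libraries of a group had been merged to 1 value, and leaving out a replicate was not run for the same reason.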

Other observations

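The lists in this paragraph and the next were chosen after the values were seen. The other members of the HSP70 and HSP110 family did not share the value of HSPA5 (-0.35). Of 10 genes kept, 6 were higher and 4 lower in TPC1-INAVA, with a median log2 fold change of 0.04 and a range from -0.25 to 0.23. The lowest, HSPA12A, lies on chromosome 10, where the median of its 4 neighbours was -0.67. HSPA8, the constitutive cytosolic HSP70, was at 1935 and 1818 FPKM, and HSPA9, the mitochondrial one, at 228 and 233 FPKM. Mitochondrial chaperones and proteases had a median of 0.03 over 10 genes. Of 6 cytosolic heat shock genes 5 were higher, with HSP90AA1 at 1464 and 1910 FPKM (0.38).

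Around ASNS in metabolism, the values went both ways. Of 7 enzymes of aspartate, asparagine and arginine metabolism 5 were higher and 2 lower, with a median of 0.09. ASS1, which joins aspartate to citrulline, was at 1.48 FPKM in TPC1-Vector against 3.69 FPKM in TPC1-INAVA (1.08), and ASL, the next enzyme of arginine synthesis, at 10.2 and 15.2 FPKM (0.55). The lower ones were GOT1, which makes aspartate, at 35.6 and 28.7 FPKM (-0.31), and the asparaginase ASRGL1, at 5.27 and 4.85 FPKM (-0.11). GOT1 lies on chromosome 10, where the median of its 13 neighbours was -0.45, lower than GOT1 itself. Of 8 folate and one-carbon enzymes 6 were lower, with a median of -0.10. SHMT1 was at 22.8 and 17.1 FPKM (-0.40) and MTHFD1 at 76.6 and 65.1 FPKM (-0.23). The higher ones were SLC25A32 (0.10) and SFXN1 (0.02). Among relatives of the 10 genes by sequence or by name, and of SESN2, 3 of the 6 kept were higher and 3 lower. GADD45A was at 24.8 and 43.3 FPKM (0.79) and SESN1 at 8.20 and 12.96 FPKM (0.63). TRIB2 was at 17.1 and 12.3 FPKM (-0.46), and its 1 neighbour was at -0.48.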
